A study of Mus musculus with 4 samples.

Results

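A set of 10 genes of the pancreatic acinar cell were followed in RNA from mouse islets: Pnlip, Pnliprp1, Pnliprp2, Cel, Clps, Pla2g1b, Amy1, Rnase1, Gp2 and Zg16. They were chosen by name as the lipid-digesting enzymes and other secreted or granule proteins of the exocrine pancreas, and all 10 were found among the 55421 gene identifiers counted. Libraries came from wild-type (WT) C57BL/6 mice on normal chow (NCD, 2 libraries) or on a high-fat diet (HFD, 2 libraries), and the material of all 4 was labelled as macrophages of the islet. The age and sex of the mice, the length of feeding, any pooling of animals and any step that separates macrophages from other islet cells were not given in the sources used here. Whether both libraries of a diet stem from different mice is unstated. The p-values therefore set the difference between diets only against the scatter of these libraries, which may be technical.

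Acinar cells make the enzymes of the pancreatic juice, store them in zymogen granules and release them into the ducts when food reaches the gut. Pancreatic lipase (Pnlip) cleaves dietary triglyceride and needs colipase (Clps) to work in the presence of bile salts. Carboxyl ester lipase (Cel) cleaves cholesteryl esters and other esters, the pancreatic phospholipase A2 (Pla2g1b) cleaves phospholipids, and amylase cleaves starch. Islets lie within this acinar tissue.

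Short stretches before the start of 4 genes are shown as examples of genes that rose and of the one that was not called. They do not stand for the set, whose motif counts follow below. Cel, Pnlip and Amy2a5, a pancreatic amylase, were several-fold higher in HFD, though not the genes with the largest rise, and Amy1, the amylase gene of salivary gland and liver, was not called. Each runs from 250 bases before to 50 bases after a RefSeq start, 5′ to 3′ on the gene's strand, from RefSeq's annotation of GRCm38.p6. The windows are chr2:28563354-28563653 on the minus strand for Cel, chr19:58670115-58670414 on the plus strand for Pnlip, chr3:113258650-113258949 on the minus strand for Amy2a5, and chr3:113574713-113575012 on the minus strand for 1 of 2 starts of Amy1. Capitals mark matches, on either strand, to an E-box (CANCTG), a TC box (TTTCCCA), a half-site of the nuclear receptor NR5A2 (CAAGGTCA) or a TATA box (TATAAA). An E-box and a TC box are the parts that the acinar transcription factor complex PTF1 binds.
Cel: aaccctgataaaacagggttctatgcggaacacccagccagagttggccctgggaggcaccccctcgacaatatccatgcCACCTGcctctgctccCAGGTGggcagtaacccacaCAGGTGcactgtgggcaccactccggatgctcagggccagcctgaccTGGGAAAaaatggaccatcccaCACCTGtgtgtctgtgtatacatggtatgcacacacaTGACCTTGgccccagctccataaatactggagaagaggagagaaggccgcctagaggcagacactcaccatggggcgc
Pnlip: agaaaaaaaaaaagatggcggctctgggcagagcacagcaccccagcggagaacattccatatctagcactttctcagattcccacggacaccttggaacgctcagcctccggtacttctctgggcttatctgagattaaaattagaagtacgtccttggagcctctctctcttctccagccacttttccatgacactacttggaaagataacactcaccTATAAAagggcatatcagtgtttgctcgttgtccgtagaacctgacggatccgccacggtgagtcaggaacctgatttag
Amy2a5: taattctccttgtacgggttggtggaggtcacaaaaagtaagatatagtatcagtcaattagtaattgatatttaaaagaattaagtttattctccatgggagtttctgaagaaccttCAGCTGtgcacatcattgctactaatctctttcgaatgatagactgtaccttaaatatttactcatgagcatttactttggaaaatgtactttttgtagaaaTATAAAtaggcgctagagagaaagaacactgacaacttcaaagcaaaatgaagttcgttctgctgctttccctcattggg
Amy1: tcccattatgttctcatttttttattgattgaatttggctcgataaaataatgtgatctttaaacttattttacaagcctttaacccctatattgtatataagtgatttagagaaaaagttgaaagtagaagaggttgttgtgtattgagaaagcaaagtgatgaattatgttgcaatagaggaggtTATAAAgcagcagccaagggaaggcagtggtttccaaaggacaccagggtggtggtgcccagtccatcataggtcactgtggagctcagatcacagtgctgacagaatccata

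Promoter windows were found for 8 of the 10 genes. A gene was counted once if any of its windows held a motif (Amy1 has 2), while the percentages count single windows. An E-box stood in 5 of the 8 (Amy1, Cel, Gp2, Pnliprp1 and Pnliprp2), against 51.4% of the 32851 RefSeq windows of the same length. A TC box stood only in that of Cel among the 8, against 8.06% of all windows, and so did the NR5A2 half-site, against 1.56%. In the Cel window the TC box began 87 bases before the start, between E-boxes at 134 and 65 bases, and the half-site began 28 bases before it. A TATA box stood in those of Pnlip, Gp2 and Amy1, against 13.6% of all windows. In Pnlip and Gp2 it began 30 and 32 bases before the start, and in Amy1 63 bases before. None of the 4 motifs was found in the windows of Pla2g1b and Rnase1, which says only that these letters are not in those windows. No match overlapped another in the windows of the 8 genes, and the E-box of Amy1 lay at its other start.

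**Figure D1:**
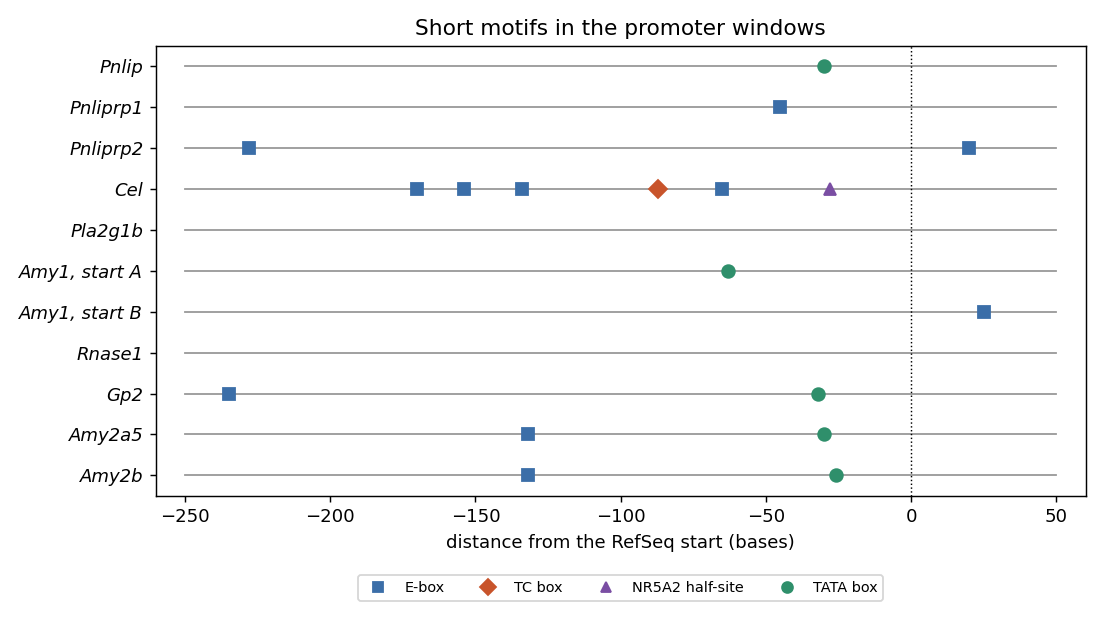
Positions of the 4 motifs in the promoter windows of 8 acinar secretory genes and 2 pancreatic amylases, as distance in bases from the RefSeq start (horizontal axis), with 1 line per window and 1 symbol per motif. E-boxes stand in several windows, the TC box and the half-site only in that of Cel, and those of Pla2g1b and Rnase1 hold no symbol.

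The 4 libraries held 56740720 to 64490097 counts, and the genes followed here had 53 to 23316 counts in a library. Values are counts per 1000000 counts of a library (CPM), scaled between libraries by TMM, given per library or as mean ± SD over n = 2 libraries of a diet. Gene positions are those of GENCODE M21 on GRCm38. The label was checked against marker lists. All 14 macrophage markers were tested and summed to 940 to 1035 CPM, with 4 higher and 6 lower in HFD. The number higher was 2 when any 1 of the 4 libraries was left out, with a replicate block or without the count filter, and the number lower was 3 without HFD replicate 1 or NCD replicate 1. A further 14 endocrine markers summed to 37015 to 42055 CPM, with 1 higher and 12 lower. Ins2, an insulin gene, stood at 9771 and 9891 CPM on NCD and at 8307 and 8730 CPM on HFD. Gcg, the endocrine marker that was higher, stood at 9032 and 9472 CPM on NCD and at 12803 and 13461 CPM on HFD. The macrophage gene Adgre1 stood at 29.5 and 31.9 CPM on NCD and at 26.4 and 24.3 CPM on HFD, and was not called (edgeR adjusted p = 0.0726). Csf1r, another macrophage marker, was higher, at 90.1 and 82.9 CPM on NCD and 101 and 99.9 CPM on HFD (edgeR adjusted p = 0.0489). That call was lost with a replicate block (0.06) or without the count filter (0.0735). The libraries thus held endocrine and acinar transcripts beside those of macrophages. The diets were compared by the quasi-likelihood test of edgeR, with a gene called where its p, adjusted by Benjamini-Hochberg, was under 0.05. Higher in HFD were 17.9% of the 21563 genes fitted, and 14.5% were lower. Called and at least 2-fold higher were 10% of them.

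The comparison of HFD with NCD asked how far these secretory transcripts differed with diet. Of the 10 genes, 9 rose in HFD, each by at least 2-fold, and none fell (17.9% of all tested genes were higher, 10% by at least 2-fold). In all 9, both HFD libraries lay above both NCD libraries, as in 34.5% of the genes tested. The exception was Amy1, whose diets overlapped. The median log2 change of the 10 genes was 3.03, beside 0.003 over all genes tested. Summed over the 10 genes, the libraries held 121 and 130 CPM on NCD, against 839 and 923 CPM on HFD. In bulk RNA, more acinar cells and more of these transcripts per acinar cell cannot be told apart.

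**Figure D2:**
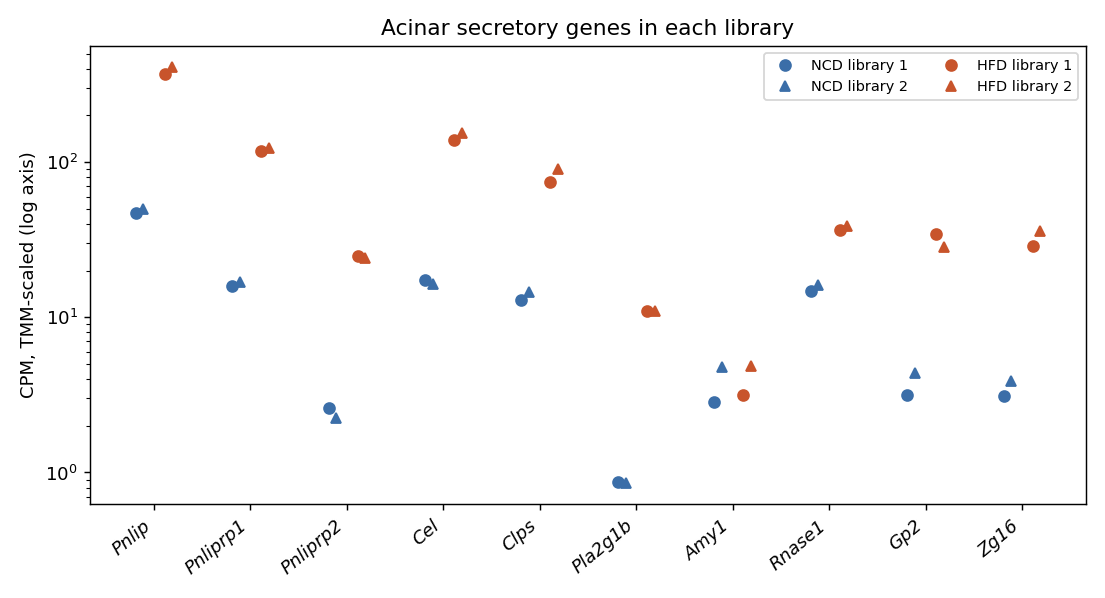
CPM of the 10 acinar secretory genes (log axis) in each of the 4 libraries, circles for library 1 and triangles for library 2 of a diet. The HFD libraries lie above the NCD libraries in all genes but Amy1, where the diets overlap, and Rnase1 has the smallest gap among the rest.

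Pancreatic lipase and the lipase-related genes rose together. Pnlip (chr19:58652498-58681788, plus strand, 14 exon blocks) was counted at 46.9 and 49.6 CPM on NCD and at 370 and 412 CPM on HFD. Its HFD libraries were 8.11-fold higher on average (log2 change 3.02, SE 0.07, edgeR adjusted p = 3.86e-05), and the lowest HFD library was 7.48 times the highest NCD library. Pnliprp1 (chr19:58728887-58744169), a lipase-related protein with little activity on triglyceride, was counted at 15.8 and 16.9 CPM on NCD and at 117 and 123 CPM on HFD. It rose 7.34-fold (log2 change 2.88, SE 0.07, edgeR adjusted p = 3.86e-05). Pnliprp2 (chr19:58759719-58777534), which also cleaves galactolipids and is made by cytotoxic lymphocytes as well, was counted at 2.6 and 2.24 CPM on NCD and at 24.8 and 24 CPM on HFD. That gene rose 10.1-fold (log2 change 3.33, SE 0.14, edgeR adjusted p = 0.000105). The 3 genes lie next to each other on the plus strand of chromosome 19, and their changes had overlapping 95% intervals, of 2.84 to 3.2, 2.69 to 3.06 and 2.99 to 3.68 on the log2 scale.

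Lymphocyte transcripts moved in the same direction as Pnliprp2. Of 15 T cell and NK cell markers 14 were tested and 12 rose, with sums of 15.8 and 14.6 CPM on NCD and of 98.03 and 87.2 CPM on HFD. Among the cytotoxic genes listed, Gzmb and Prf1 rose, to 1.67 ± 0.24 and 1.69 ± 0.632 CPM on HFD. Nkg7 and Gzma were not called, and Klrb1c was not tested. The part of lymphocytes in the level of Pnliprp2 was not tested.

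The cofactor and the other lipid-digesting enzymes rose as well. Clps (chr17:28558149-28560766, minus strand) was counted at 12.9 and 14.5 CPM on NCD and at 74 and 90.9 CPM on HFD. It rose 6.03-fold (log2 change 2.59, SE 0.13, edgeR adjusted p = 0.000175). Relative to their mean, its HFD libraries lay further apart than those of the lipases. Cel (chr2:28555795-28563403, minus strand) was counted at 17.5 and 16.4 CPM on NCD and at 139 and 154 CPM on HFD. It rose 8.63-fold (log2 change 3.11, SE 0.08, edgeR adjusted p = 4.03e-05). Pla2g1b (chr5:115466262-115474722, plus strand) had the lowest counts of the 10 in NCD, 56 and 53, or 0.868 and 0.852 CPM, and stood at 10.9 and 11.1 CPM in HFD. With 12.8-fold (log2 change 3.67, SE 0.17, edgeR adjusted p = 0.000153) it had the largest rise of the 10. Its 95% interval of 3.24 to 4.11 lay above those of Pnlip, Pnliprp1 and Clps and overlapped those of Cel (2.91 to 3.31), Pnliprp2, Gp2 and Zg16.

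The granule proteins rose like the lipases. Gp2 (chr7:119442537-119459285, minus strand), the main membrane glycoprotein of zymogen granules, was counted at 3.18 and 4.39 CPM on NCD and at 34.3 and 28.4 CPM on HFD. It rose 8.28-fold (log2 change 3.05, SE 0.2, edgeR adjusted p = 0.000391). Zg16 (chr7:127050156-127087328, minus strand), a lectin-like granule protein that intestinal goblet cells also secrete, was counted at 3.1 and 3.86 CPM on NCD and at 28.7 and 36.2 CPM on HFD. It rose 9.33-fold (log2 change 3.22, SE 0.18, edgeR adjusted p = 0.000253). Relative to their mean, the libraries of a diet differed more in both genes than in Pnlip, while the diets stayed well apart.

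Of 12 intestinal epithelial markers 6 had no count in any library, among them Fabp2, Sis and Alpi of absorptive cells, and 5 were tested, of which 2 rose and 2 fell. The number that fell was 1 without HFD replicate 1, NCD replicate 1 or NCD replicate 2. The sums over the list were 70.3 and 67.5 CPM on NCD, against 61.8 and 64.8 CPM on HFD. Most of each sum was Vil1, which fell, at 60.9 and 59.2 CPM on NCD and 47.4 and 50.3 CPM on HFD (edgeR adjusted p = 0.0212). The sums therefore say little about the other markers of the list. The goblet cell mucin Muc2 rose from 0.189 ± 0.0621 to 1.32 ± 0.0833 CPM (edgeR adjusted p = 0.00867), a call lost without HFD replicate 2 (edgeR adjusted p = 0.0545). The goblet cell gene Fcgbp fell from 2.6 ± 0.625 to 0.4 ± 0.166 CPM (edgeR adjusted p = 0.0071), and the cadherin gene Cdh17 rose from 0.424 ± 0.145 to 6.75 ± 0.498 CPM (edgeR adjusted p = 0.000613).

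Rnase1 (chr14:51144998-51146785, minus strand), the pancreatic ribonuclease, was counted at 14.8 and 16 CPM on NCD and at 36.4 and 39 CPM on HFD. It rose 2.45-fold (log2 change 1.29, SE 0.09, edgeR adjusted p = 0.000479). Its 95% interval of 1.06 to 1.52 lay below those of the other 8 genes that rose, the lowest of which began at 2.27, in Clps. Rnase1 is also made by endothelial cells, and of 12 endothelial markers 7 rose and 2 fell, with sums of 2116 and 2154 CPM on NCD and of 2517 and 2531 CPM on HFD. The number that fell was 0 without HFD replicate 1 and 1 without HFD replicate 2 or NCD replicate 1. The endothelial marker with the smallest p, Vwf, rose from 14.8 ± 1.65 to 71.4 ± 0.19 CPM (edgeR adjusted p = 0.000117). Those that fell were more abundant. Kdr went from 361 ± 10.3 to 309 ± 2.44 CPM and Flt1 from 393 ± 7.72 to 348 ± 6.72 CPM (edgeR adjusted p = 0.0118 and 0.0233). The part of endothelial cells in the level of Rnase1 was not tested. Of the 9 other listed members of the ribonuclease A family 3 had enough counts for the test. Of these 2 fell, Rnase4 from 874 ± 13.8 to 446 ± 16.3 CPM (edgeR adjusted p = 0.000111) and Ang, encoding angiogenin, from 115 ± 0.953 to 73.2 ± 2.14 CPM (edgeR adjusted p = 0.000807). These are uncertain as separate values, since Rnase4 and Ang share exons on the same strand. Rnase6 rose from 0.658 ± 0.251 to 2.7 ± 1.4 CPM (edgeR adjusted p = 0.0316), and did not pass without HFD replicate 2 (0.15) or NCD replicate 1 (0.102), or with limma-voom (0.056).

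Amy1 (chr3:113555710-113606699, minus strand) was counted at 2.85 and 4.76 CPM on NCD and at 3.16 and 4.87 CPM on HFD. The libraries of a diet differed more than the diets did, and the log2 change of 0.08 (SE 0.34, 95% interval -0.78 to 0.94, edgeR adjusted p = 0.891) did not pass the test. The interval lies within a 2-fold change in either direction. It rests on 2 libraries of each diet, whose scatter may be technical, so it does not exclude a larger change with diet. Without HFD replicate 2 or NCD replicate 1 the value for Amy1 was -0.27 or -0.25. What is counted as Amy1 is uncertain, because its annotated exons overlap on the same strand with those of Rnpc3, a gene of the minor spliceosome, and 33.3% of its 50-base words recur in transcripts of other genes, Rnpc3 and the other amylases. Rnpc3 itself stood at 19.2 and 22.6 CPM on NCD and at 21.5 and 23.6 CPM on HFD (edgeR adjusted p = 0.543). Per 100 CPM of Rnpc3 there were 14.8 and 21.02 CPM of Amy1 in NCD and 14.7 and 20.6 CPM in HFD. Of 9 salivary gland markers 7 had no count in any library. Aqp5, a water channel gene and the marker tested, had 0 and 21 counts in NCD and 113 and 111 in HFD (edgeR adjusted p = 0.0749). It passed without NCD replicate 1 (0.0161) or NCD replicate 2 (0.00238), with limma-voom (0.0365) and with counts divided by 4 (0.015). None of the other 9 secretory genes shares a 50-base word with another gene's transcripts or overlaps the exons of one.

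The amylases of the pancreas itself rose as well. All 6 (Amy2a1 to Amy2a5 and Amy2b, the last annotated as a pseudogene in GRCm38) rose, by 6.36-fold in Amy2a4 to 12-fold in Amy2b. Single copies are uncertain, since in Amy2a2, Amy2a3 and Amy2a4 100% of the 50-base words recur in other genes, and Amy2a5 stood at 313 and 546 CPM in the HFD libraries. Their sum was 171 and 204 CPM on NCD, against 1618 and 1629 CPM on HFD, 8.67-fold higher. For each 100 CPM of this pancreatic amylase, the libraries held 27.5 and 24.3 CPM of Pnlip in NCD and 22.9 and 25.3 CPM in HFD. The lipase to amylase ratio therefore overlapped between the diets.

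**Figure D3:**
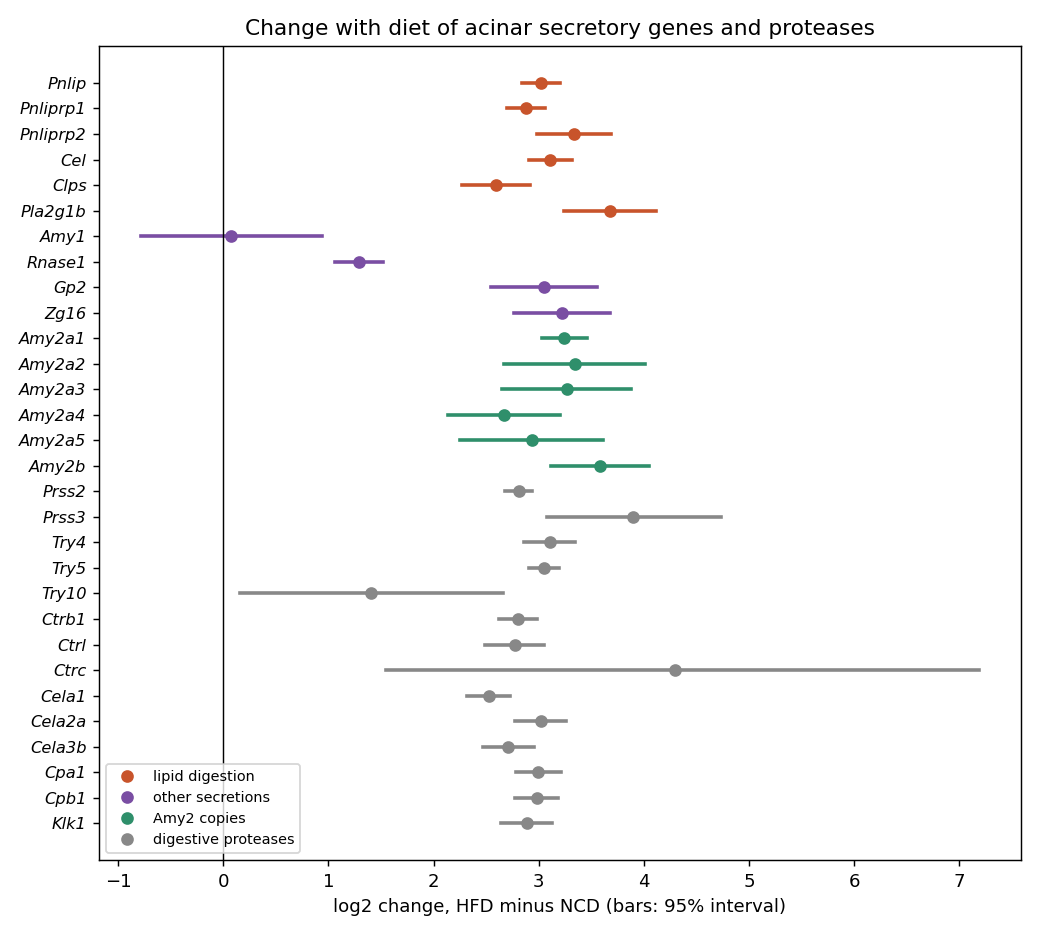
Log2 change between HFD and NCD with its 95% interval (horizontal axis) for the 10 acinar secretory genes, the 6 pancreatic amylase copies and 14 tested digestive proteases. Most points lie near 3, the interval of Amy1 spans 0, and that of Rnase1 lies below the bulk. The protease Try10, which was not called, has a wide interval at lower values.

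Digestive proteases, the most similar group of acinar products, gave the scale for these changes. Of 18 listed proteases and their inhibitor 16 were tested and 15 rose, with a median log2 change of 2.93. Prss2, a trypsinogen, rose from 47.7 ± 1.38 to 334 ± 5.33 CPM, Ctrb1, a chymotrypsinogen, from 120 ± 3.02 to 839 ± 74.5 CPM, and the carboxypeptidase gene Cpb1 from 14.1 ± 0.318 to 111 ± 8.16 CPM (edgeR adjusted p = 1.86e-05, 3.86e-05 and 4.27e-05). Protease sums, without the inhibitor, were 460 and 488 CPM on NCD, against 3163 and 3521 CPM on HFD, 7.05-fold higher.

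Set against that protease sum within each library, the secretory genes were not all in step. Pnlip amounted to 10.2% and 10.2% of it in NCD and 11.7% and 11.7% in HFD, and Pla2g1b to 0.189% and 0.175% in NCD and 0.346% and 0.314% in HFD. Clps went the other way, at 2.8% and 2.96% in NCD and 2.34% and 2.58% in HFD. Rnase1 amounted to 3.22% and 3.28% in NCD and 1.15% and 1.11% in HFD. For 6 of the 10 genes both HFD ratios lay above both NCD ratios, for 3 (Clps, Amy1 and Rnase1) both lay below, and for Gp2 they overlapped. The same share over all genes was not computed, so these counts have no background. As the protease sum rose 7.05-fold, a gene that does not change with diet also falls below. Per 100 CPM of Pnlip there were 27.5 and 29.2 CPM of Clps in NCD and 20 and 22.1 CPM in HFD. With 2 libraries against 2 the smallest two-sided p of an exact permutation test is 0.333, which misses 0.05 whatever the values, and the ratios are given as a description.

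**Figure D4:**
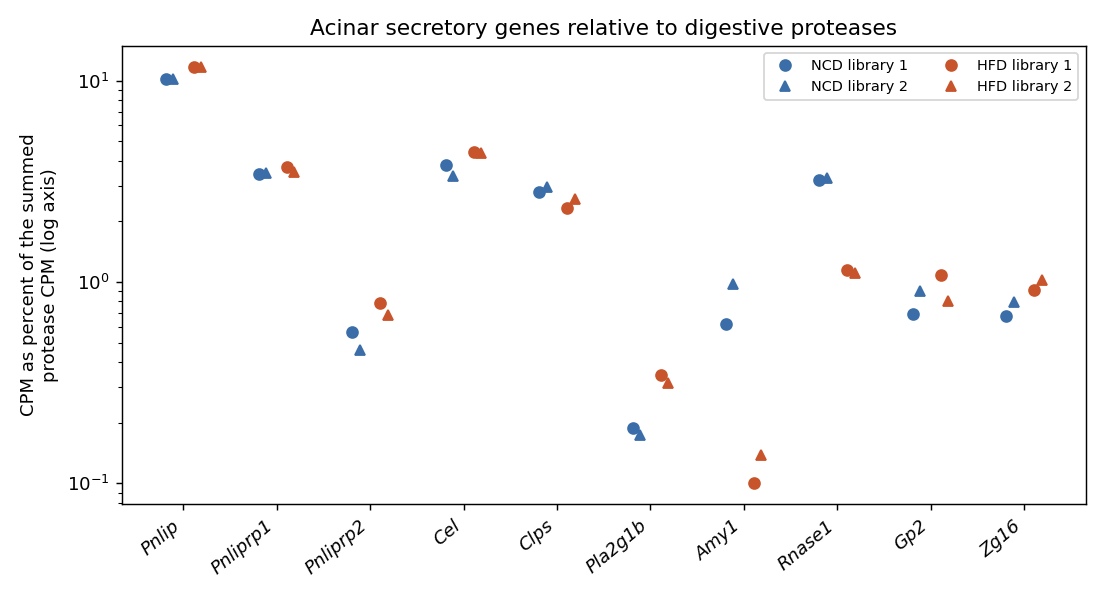
CPM of each of the 10 genes as a percent of the summed CPM of the digestive proteases in the same library (log axis), circles for library 1 and triangles for library 2 of a diet. Pnlip, Pnliprp1 and Cel move little between diets, Pla2g1b is higher in HFD, and Amy1 and Rnase1 are lower.

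Levels of different genes were compared as CPM per kilobase of annotated exon. In NCD the order was Clps (22.4 ± 1.84), Pnlip (22 ± 0.853), Rnase1 (15.5 ± 0.863), Cel (8.06 ± 0.37), Pnliprp1 (7.37 ± 0.356), Zg16 (2.77 ± 0.427), Gp2 (1.89 ± 0.429), Pnliprp2 (1.54 ± 0.166), Pla2g1b (1.21 ± 0.0158) and Amy1 (1.1 ± 0.391). In this order Clps and Pnlip overlapped between libraries, as did Gp2 and Pnliprp2, and Pla2g1b and Amy1. In HFD Pnlip led with 178 ± 13.3 CPM per kilobase, followed by Clps (135 ± 19.6), Cel (69.6 ± 4.91), Pnliprp1 (54.1 ± 1.92), Rnase1 (38.05 ± 1.85) and Zg16 (25.8 ± 4.18). Gp2, Pnliprp2 and Pla2g1b overlapped as neighbours at 15.7 ± 2.1, 15.5 ± 0.361 and 15.4 ± 0.12 CPM per kilobase, and Amy1 was last at 1.17 ± 0.351. With the longest annotated transcript as length, 14 of the 20 positions changed, and in NCD Pnlip (32.4 CPM per kilobase) then stood before Clps.

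Among the other products of granules and juice, 7 of 9 tested genes rose. Sycn, encoding the granule protein syncollin, rose from 8.3 ± 0.321 to 47.8 ± 5.3 CPM, Pdia2, a pancreatic protein disulphide isomerase, from 1.35 ± 0.3 to 11.6 ± 0.996 CPM, and Tff2, a trefoil peptide, from 1.88 ± 0.64 to 8.7 ± 2.19 CPM (edgeR adjusted p = 0.000128, 0.000475 and 0.0051). The nuclease gene Dnase1 stood at 4.48 ± 0.685 CPM in NCD and 4.65 ± 0.27 CPM in HFD (edgeR adjusted p = 0.873). Cfap126, which the list held although it is a gene of cilia, fell from 5.48 ± 0.599 to 3.07 ± 0.116 CPM (edgeR adjusted p = 0.0232), and did not pass when NCD replicate 2, HFD replicate 1 or HFD replicate 2 was left out (edgeR adjusted p = 0.0916, 0.0725 and 0.0891) or with a replicate block (0.0507). Of 20 general acinar markers 19 rose and 1 fell, with sums of 563 and 584 CPM on NCD and of 3624 and 4261 CPM on HFD. Since several of these markers are proteases or amylases described above, the lists are not independent.

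Genes listed as regulators of the acinar cell moved in both directions. Of 12 such genes 6 rose and 3 fell. The 6 became 1 without either HFD replicate and 2 without NCD replicate 2 or with a replicate block. Ptf1a, the acinar subunit of PTF1, had 0 counts in both NCD libraries and 18 and 28 counts in HFD (edgeR adjusted p = 0.0202), and its partner Rbpjl had 4 and 0 counts in NCD and 29 and 40 in HFD (edgeR adjusted p = 0.0453). Without the count filter Rbpjl did not pass either (edgeR adjusted p = 0.0769). Both calls rest on few counts and were lost when either HFD library was left out (edgeR adjusted p = 0.0788 and 0.144 for Ptf1a, 0.125 and 0.226 for Rbpjl). Without NCD replicate 2 the adjusted p was 0.0546 for Ptf1a and 0.0754 for Rbpjl, and without NCD replicate 1 it was 0.0567 for Ptf1a. With a replicate block it was 0.0703 for Ptf1a and 0.0989 for Rbpjl. Nr5a2, the nuclear receptor of the half-site shown above, rose from 4.46 ± 0.811 to 10.5 ± 2.43 CPM (edgeR adjusted p = 0.0126). Cckar, the receptor for cholecystokinin on acinar cells, had 4 and 0 counts in NCD and 14 and 12 in HFD and did not pass (edgeR adjusted p = 0.178). The 3 that fell were the transcription factor gene Bhlha15, from 25.2 ± 0.677 to 17.2 ± 0.62 CPM, the muscarinic receptor gene Chrm3, from 45.9 ± 0.431 to 31.9 ± 1.14 CPM, and the vesicle gene Rab3d, from 111 ± 4.02 to 65.9 ± 3.26 CPM (edgeR adjusted p = 0.00832, 0.00395 and 0.000851). Which cells these 3 transcripts came from was not tested, and 12 of 14 endocrine markers were lower in HFD too.

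Of 7 listed relatives of the lipases outside the acinar cell 5 were tested, of which 3 rose and 1 fell, with a median log2 change of 1.09. Lpl, lipoprotein lipase, fell from 443 ± 3.23 to 268 ± 7.14 CPM (edgeR adjusted p = 0.000247). Endothelial lipase (Lipg) and Liph, a phosphatidic acid phospholipase, rose from 0.934 ± 0.225 to 4.55 ± 0.0465 CPM and from 0.538 ± 0.126 to 3.3 ± 0.173 CPM (edgeR adjusted p = 0.00263 and 0.0026). Pla1a, a phosphatidylserine phospholipase, rose from 2.54 ± 0.202 to 5.4 ± 0.673 CPM (edgeR adjusted p = 0.0124), which did not pass without HFD replicate 1 (0.0626). Of the secreted phospholipases other than Pla2g1b, Pla2g2f fell from 336 ± 12.04 to 119 ± 4.09 CPM (edgeR adjusted p = 6.7e-05) and Pla2g2d rose from 15.6 ± 0.133 to 24.1 ± 1.99 CPM (edgeR adjusted p = 0.00819). Of 9 listed members of that family 6 were tested, of which 2 rose and 1 fell. Pla2g5, the other that rose, went from 0.159 ± 0.0934 to 1.12 ± 0.536 CPM (7.05-fold, edgeR adjusted p = 0.0285), and did not pass without HFD replicate 2 (0.188) or NCD replicate 1 (0.0814).

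The 5 other genes whose log2 CPM profile over the 4 libraries lay closest to the mean profile of 9 secretory genes were Vcan, Prss2, Bgn, Ighv1-53 and Ptgs2. Their root mean square distances were 0.011, 0.042, 0.045, 0.048 and 0.053 on the log2 scale. The 9 are those with a mean of at least 5 CPM over all 4 libraries, which leaves out Amy1 and which Pnliprp2, Pla2g1b, Gp2 and Zg16 reach only through HFD, so the profile holds the diet difference by construction and the likeness is a description. Only Prss2 among them is an acinar product, while Vcan and Bgn encode matrix proteoglycans, Ighv1-53 is an antibody segment and Ptgs2 encodes the inducible cyclooxygenase. Most markers of fibroblasts, B cells and duct cells moved in the same direction as the acinar genes. All 10 fibroblast markers rose, with sums of 214 and 219 CPM on NCD and of 1390 and 1424 CPM on HFD, and 9 of 10 B cell and plasma cell markers rose, with sums of 704 and 707 CPM on NCD and of 4656 and 4697 CPM on HFD. Of 12 duct cell markers 8 rose and 1 fell, with sums of 1725 and 1801 CPM on NCD and of 2970 and 3274 CPM on HFD. Spp1, the duct marker with the smallest p, held much of these sums, at 590 and 626 CPM on NCD and 1685 and 1895 CPM on HFD. The duct transcription factor gene Sox9 rose from 3.96 ± 0.143 to 18.3 ± 2.34 CPM, and the keratin gene Krt7 fell from 445 ± 4.04 to 241 ± 13.3 CPM (edgeR adjusted p = 0.000429 and 0.000263). Their part in the changes of the secretory genes was not tested. Endocrine markers summed to 40622 and 42055 CPM on NCD and to 37015 and 38647 CPM on HFD.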

How the data were processed

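RNA of 2 NCD and 2 HFD libraries was sequenced after TRIzol extraction and stranded KAPA library preparation, per the labels' protocols. The authors deposited whole-number counts per Ensembl gene, 1 table per library. The submitters' processing notes name HISAT, featureCounts 1.5.0, DESeq 1.8.3 and build GRCm38. The roles of these tools, the use of strand and the handling of multiply matching reads were not given in the sources used here. Low counts favoured multiples of 4 (by a factor of 1.61 to 1.71 over their neighbours), so counting precision may be lower than the totals give. Symbols and gene models came from GENCODE M21 (GRCm38), which gave 55154 of 55421 identifiers a symbol. Genes passing filterByExpr (minimum count 10, 21563 genes) were scaled by TMM and tested with edgeR 4.0.16's quasi-likelihood F test in R 4.3.3, without a replicate block. Standard errors were derived from the F statistic. The test was tried on simulated counts.

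The genes and lists were chosen with earlier results of these data known. Named were the 10 genes, up to 4 genes of a list with the smallest p, list members called against their list's direction, and the 5 nearest profiles. Not every gene that qualified is printed, and 1 tested protease is not reported here. Cdh17, Muc2 and Fcgbp come under that rule. Rnpc3, Dnase1, Aqp5, Gzmb, Prf1, Nkg7, Gzma, Klrb1c and the zero-count markers were named after their values were seen. Alternatives were DESeq2's size factors, no scaling, DESeq2 1.42.0, limma-voom (limma 3.58.1), no filter, a filter at a mean of 5 CPM, blocking by replicate number, omitting each library in turn, totals computed without endocrine and acinar genes, and, chosen after seeing the data, counts divided by 4.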

Additional observations from a re-analysis of the deposited data

How the results depend on the processing

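The number of secretory genes higher in HFD was 9 and of those lower 0 under all 13 alternatives. Amy1, under 5 CPM on average, was not fitted with a filter at that level. That filter also left fewer list members to test, so that fewer were called in several lists. Leaving out 1 library gave 9 to 9 higher and 0 to 0 lower among them, 2710 to 3224 genes higher and 2015 to 2174 lower over the whole table, where the full data gave 3860 and 3123. The lowest number of genes lower in HFD, 2015, came without HFD replicate 1. DESeq2's Wald test called 4959 genes higher and 4302 lower.

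The libraries share a replicate number but the labels do not say that it pairs them, and the deviations of same-numbered libraries had a correlation of 0.0021 across genes. With a replicate block 3252 genes were higher and 2583 lower, and 9 of the secretory genes were higher. Leaving out 1 library moved the log2 change of Amy1 between -0.27 (without HFD replicate 2) and 0.49, with -0.25 without NCD replicate 1. That of Dnase1 moved between -0.098 (without NCD replicate 1) and 0.21, with -0.013 without HFD replicate 2, and that of Rnpc3 between -0.0046 (without NCD replicate 1) and 0.23. None of these values passed the test, and the cause was not tested. Depth limits Ptf1a, Rbpjl and Cckar, which had at most 40 counts in a library.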
